A study of Homo sapiens with 17 samples.

Results

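The comparison described here set 10 nM against 1 nM rapamycin, without a second drug, in L363, a human multiple myeloma cell line. It used 6 of the 17 arrays in the study, 3 at 10 nM and 3 at 1 nM, chosen by their titles. Same-numbered arrays were treated as pairs. The question it addresses is whether 1 nM already gives the whole response, so each result is a difference between the doses with its 95% confidence interval. All cells were cultured for 48 hours, and the other groups were 10 nM rapamycin with 0.5 uM MS275 (2 arrays), 1 nM rapamycin with 0.5 uM MS275 (3 arrays), 0.5 uM MS275 alone (3 arrays) and untreated controls (3 arrays). MS275, also known as entinostat, inhibits class I histone deacetylases. One array of the study was left out by the submitters at quality control. L363 is a single established line grown alone, with no bone marrow stroma or immune cells beside it. The labels do not say whether the replicates were separate cultures, so the errors given here measure the spread between these arrays, which may be partly technical.

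Rapamycin binds the small protein FKBP12, and the pair blocks part of the activity of mTOR complex 1, a kinase that couples growth to amino acids, growth factors and energy. Active mTOR complex 1 raises translation of mRNAs for the protein synthesis machinery, raises the transcription factors ATF4 (amino acid uptake and synthesis), SREBP1 and SREBP2 (fatty acid and sterol synthesis) and HIF1A (glycolysis), and restrains autophagy and lysosome genes. Cells deprived of its activity slow their passage through G1, and mRNAs of DNA replication and mitosis then become scarcer in the population. Some outputs of the complex are known to be more sensitive to rapamycin than others.

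The values are log2 signals, and 1 probe set, the singly named one with the highest mean over all 17 arrays, stood for each of 19775 genes. The 6 arrays were alike in scale, with medians of 5.09 to 5.17 and SDs over all probe sets of 2.32 to 2.36. Control replicate 1 and replicate 1 of 1 nM rapamycin with MS275 stood apart, with a narrower range (SDs of 2.14 and 2.15, where all remaining arrays had 2.27 or more). Neither enters the comparison of the doses, but the first enters the comparison with control and the second that with MS275. Plasma cell identity was plain: the 10 plasma cell markers averaged 11.10 to 11.55 on the 10 nM arrays and 11.16 to 11.41 on the 1 nM arrays, and the dimmest was CD38 at 7.40. Mean levels of the measured markers of fibroblasts, epithelium, red cells, B cells, T cells and the myeloid line lay between 3.94 and 5.74 on the 10 nM arrays and between 3.84 and 5.58 on the 1 nM arrays. The brightest of these were the T cell marker CD28 (8.64) and the B cell marker BACH2 (8.53). No detection calls were used here, so a low level cannot be told from background.

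Across all genes the doses differed little, and no gene passed an adjusted p of 0.05 (0.0% of 19775 genes, limma with the pair as a block). The smallest adjusted p was 0.122. At an unadjusted p under 0.05, 1501 genes (7.59%) differed, 861 lower (4.35%) and 640 higher (3.24%) at 10 nM. Without the pair as a block that count was 246, 124 lower (0.627%) and 122 higher (0.617%), so counts at this threshold rest on the pairing. The median difference was 0.03 and the median 95% interval reached 0.257 to either side, so that 17143 genes (86.7%) had an interval wholly within 0.5 of no difference. The spread was uneven between pairs, with SDs of the difference over genes of 0.198, 0.180 and 0.339 in pairs 1, 2 and 3. Large differences lay on 1 side: 164 genes (0.829%) were lower at 10 nM by at least 0.5 and in the same direction in all 3 pairs, and 0 genes (0.0%) were higher by as much. The count of genes past the threshold depended on single pairs. Without pair 1 it was 288, without pair 2 it was 87 and without pair 3 it was 96, in fits whose spread rests on 1 residual degree of freedom and otherwise on the other genes. In all 3 of these fits 22 genes passed, among them DDIT4, PFKFB3, PFKFB4, GLUL, MTFR2, BUB1, GINS4, E2F8 and RB1, described below.

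Genes that respond to rapamycin were taken as those whose mean over both doses differed from control past an adjusted p of 0.05, a contrast that weighs both doses equally. There were 179, of which 153 fell (0.774% of all genes) and 26 rose (0.131%). That count was 64 without 10 nM replicate 1, 61, 94 and 96 without 1 nM replicates 1, 2 and 3, and 49 without control replicate 3, while without both narrow arrays it was 213. Their median change from control was -0.98 at 1 nM and -1.08 at 10 nM. Taken in the direction of each gene's response, the median further change at 10 nM was 0.11, against -0.04 over all genes. It was 0.23, 0.06 and -0.03 in pairs 1, 2 and 3, and 0.02 without pair 1. Of the 179 genes, 122 (68.2%) went further at 10 nM, beside 38.8% of all genes. At an unadjusted p under 0.05, 48 went further (2.68% of all genes) and 0 less far (4.91% of all genes). The interval lay within 0.5 of no difference for 126 of the 179 (70.4%), a smaller share than the 86.7% of all genes. For 152 the largest further change that the interval allows was under 50% of the response itself, as for 5768 of all 19775 genes. The 179 were chosen for a clear response, with a median size of 1.10, so a bound that is small beside it follows partly from that choice.

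These 179 genes fall into groups with different values. The 29 that belong to the mitotic or the G1/S and DNA replication lists were lower at 10 nM in 29 of 29 cases, with a median further change of 0.38 (0.65, 0.17 and 0.36 in the pairs). Of these, 26 had an unadjusted p under 0.05 (89.7%, against 2.68% of all genes that went further and 4.35% that were lower). Their median change from control was -1.26 at 1 nM and -1.74 at 10 nM. The other 150 had a median further change of 0.04 (0.17, 0.03 and -0.07 in the pairs), and their median change from control was -0.95 at 1 nM and -0.96 at 10 nM. Of these 150, 93 (62.0%) went further at 10 nM, 22 (14.7%) at an unadjusted p under 0.05 and 0 less far, so that this set too held more further changes than all genes did. The lists do not hold every cell cycle gene, however, and the 150 include some, such as the spindle gene GPSM2. How many of the 22 are cell cycle genes was not counted, so the 150 do not stand for responses outside the cell cycle. The interval lay within 0.5 of no difference for 123 (82.0%). Without the block 1 of the 29 had an unadjusted p under 0.05 (3.45% lower, against 0.627% of all genes). Of the 150, 2 did, 1 lower and 1 higher at 10 nM. These shares of 0.667% each were near the 0.627% and 0.617% of all genes.

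**Figure D1:**
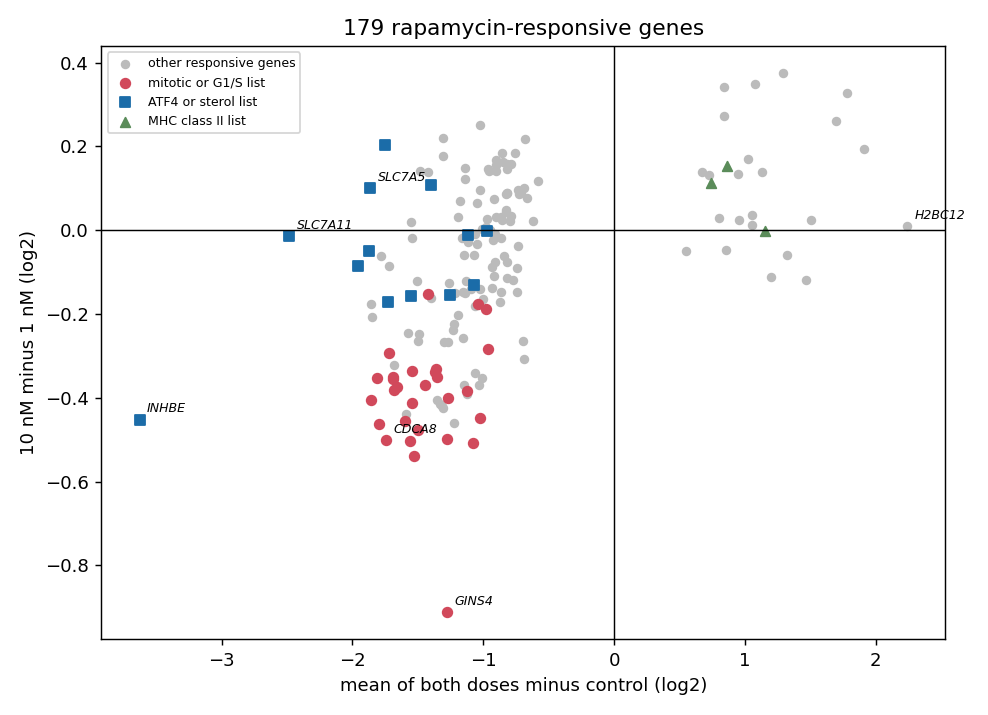
Each point is 1 of the 179 genes that differed from control, with the log2 change from control (mean of both doses) on the horizontal axis and the log2 difference of 10 nM minus 1 nM on the vertical axis. Red circles are the 29 members of the mitotic and G1/S lists, all below 0, blue squares are ATF4 and sterol genes, which lie between -0.17 and 0.20 except INHBE at -0.45, green triangles are MHC class II genes and grey points the remainder.

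Among the 179 genes past the threshold, the largest falls from control, INHBE and SLC7A11, were in genes of the ATF4 response. That response covers amino acid uptake and synthesis. INHBE, which encodes the activin E subunit and is an ATF4 target, was 10.48, 9.48 and 9.77 in controls, 6.52, 6.60 and 6.41 at 1 nM, and 6.26, 6.59 and 5.33 at 10 nM. Both doses lay far below control and overlapped each other. Its change from control was -3.63, a 12.3-fold fall, and 10 nM was lower than 1 nM by a further -0.45 (95% interval -0.83 to -0.08, limma adjusted p = 0.604). Without pair 3, whose 10 nM array was the lowest, the dose difference was -0.14. SLC7A11, the cystine and glutamate exchanger that feeds glutathione synthesis, was 8.68, 8.10 and 8.90 in controls, 5.88, 5.94 and 6.44 at 1 nM, and 6.07, 6.26 and 5.88 at 10 nM. The doses overlapped, with a difference of -0.01 (-0.36 to 0.33) beside a change from control of -2.48.

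SLC7A5 is the light chain of the transporter for leucine and other large neutral amino acids. Among the 10 largest falls of the responsive genes, it had the smallest bound relative to its response. It was 11.78, 11.19 and 11.08 in controls, 9.43, 9.49 and 9.39 at 1 nM, and 9.37, 9.59 and 9.65 at 10 nM. All 6 treated arrays lay within a narrow band far below control, and the difference was 0.10 (-0.15 to 0.35). The largest further fall inside that interval is 8.17% of the change from control of -1.86. Such percentages rest on the paired fit and take the change from control as exact, although it has its own error (SE 0.20 here). SLC3A2, the heavy chain of the same transporter, had a difference of 0.20 (-0.05 to 0.46), and its bound was 2.87% of a change of -1.75. PHGDH, the first enzyme of serine synthesis, differed by -0.09 (-0.33 to 0.16), with a bound of 17.1% of -1.95. GARS1, the glycyl-tRNA synthetase, differed by 0.18 (-0.09 to 0.44), with a bound of 6.84% of -1.31.

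Over the whole list of ATF4 response and amino acid transport genes, 36 of 37 were measured, and their median dose difference was 0.07 (0.02, 0.06 and 0.15 in the pairs), beside 0.03 over all genes. Against control the list's median was -0.72 at 1 nM and -0.60 at 10 nM. At an unadjusted p under 0.05, 5 were lower at 10 nM (13.9%, against 4.35% of all genes) and 2 higher (5.56%, against 3.24%), and 26 (72.2%) had an interval within 0.5 of no difference, against 86.7% of all genes. The list's median was thus near that of all genes while single members differed in both directions. The lower ones included PSPH and PSAT1, the last and the middle enzyme of serine synthesis, at -0.60 (-0.91 to -0.30) and -0.51 (-0.78 to -0.24). PSPH was 6.91, 6.49 and 6.63 at 10 nM and 7.09, 7.33 and 7.42 at 1 nM, with no overlap. A second probe set of PSAT1 gave -0.02. ALDH18A1, which starts proline synthesis, was among the higher ones at 0.30 (0.06 to 0.54). For the aminoacyl-tRNA synthetases, which charge tRNAs, 17 of 20 were measured and 17 of 17 had an interval within 0.5 (86.7% of all genes), with a median of 0.05.

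**Figure D2:**
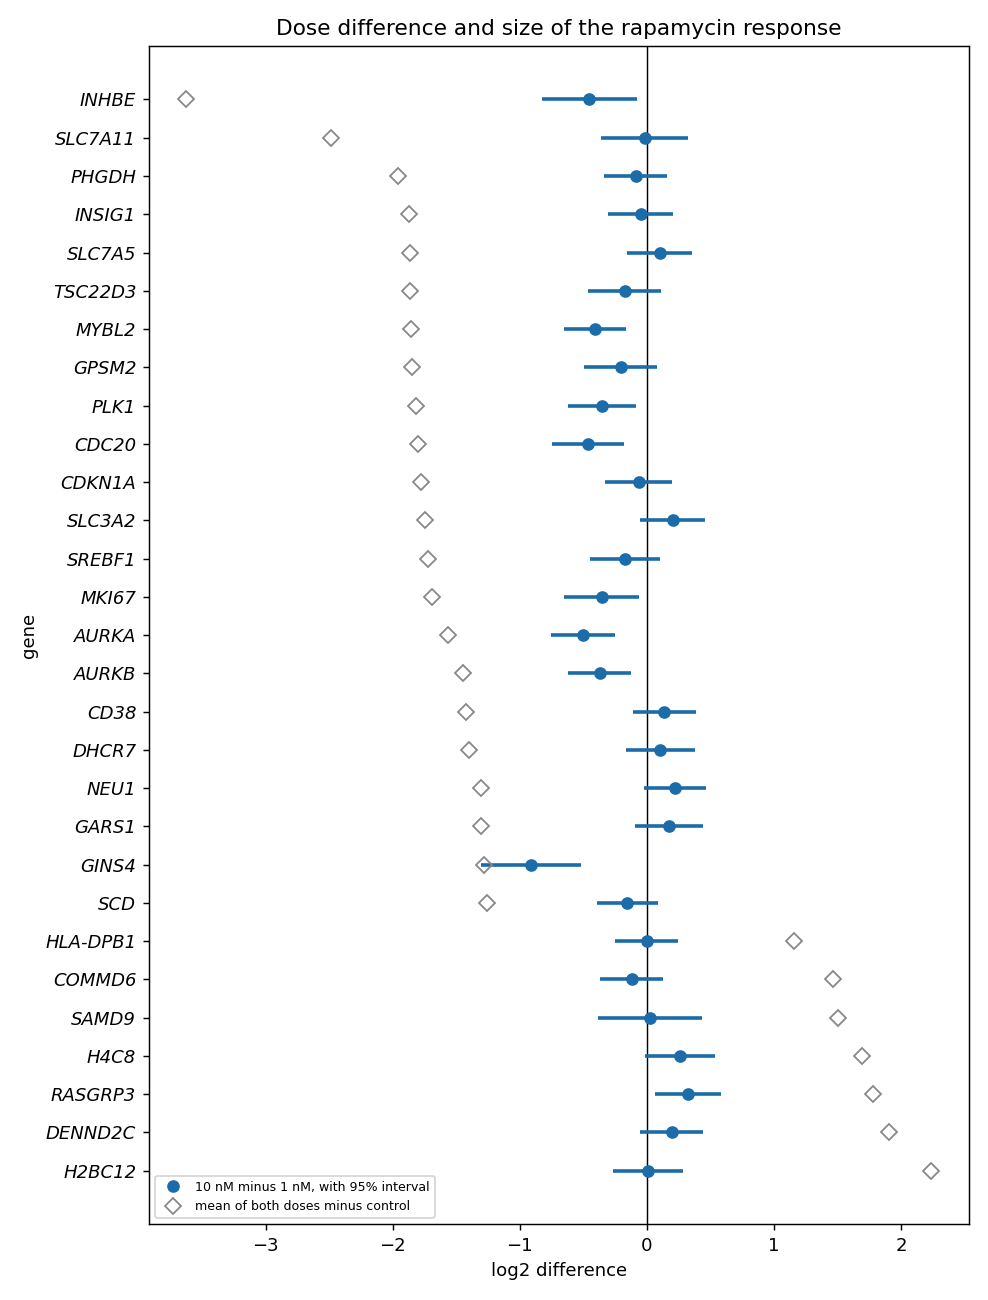
For the genes named by a fixed rule that differed from control, filled circles give 10 nM minus 1 nM on the log2 scale with its 95% confidence interval (lines), and open diamonds give the change from control as the mean of both doses. Genes run by the size of that change, from INHBE at -3.63 to H2BC12 at 2.24, and the intervals of AURKA, AURKB, CDC20, PLK1, MYBL2, MKI67, GINS4 and INHBE lie below 0, while that of RASGRP3 lies above it.

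Sterol and fatty acid genes as a list had a median dose difference of 0.03, the same as all genes. INSIG1, which holds the SREBP precursors in the endoplasmic reticulum and is itself an SREBP target, was 9.80, 9.80 and 10.23 in controls, 8.24, 7.42 and 8.62 at 1 nM, and 8.004, 7.46 and 8.67 at 10 nM. The doses followed each other pair by pair, with a difference of -0.05 (-0.30 to 0.21) beside a change of -1.87. DHCR7, the last enzyme of cholesterol synthesis, differed by 0.11 (-0.16 to 0.38) beside -1.40. SCD, which desaturates fatty acids, differed by -0.15 (-0.39 to 0.09) beside -1.26, and SREBF1, which encodes SREBP1, by -0.17 (-0.45 to 0.11) beside -1.73. For SCD and SREBF1 the interval leaves room for a further fall of up to 31.3% and 26.0% of the change from control. Of the 27 list members measured, 22 (81.5%) had an interval within 0.5 of no difference, against 86.7% of all genes, and 1 was lower (3.70%) and 1 higher (3.70%) at an unadjusted p under 0.05, near the shares of all genes. The mean level of the list was 8.67, 8.64 and 8.69 at 1 nM and 8.61, 8.65 and 8.69 at 10 nM, below 8.97, 9.38 and 9.34 in controls.

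The 26 genes that rose under rapamycin had a median further rise of 0.12 at 10 nM, with 0.18, 0.11 and 0.07 in the pairs. Of these, 20 (76.9%) went further, which for a rise means higher at 10 nM, as were 11741 of all 19775 genes. At an unadjusted p under 0.05, 5 (19.2%) went further, beside 3.24% of all genes that were higher, and 0 less far. The 5 were SATB1, SAMD9L, ACVR2B, IQCH-AS1 and RASGRP3, of which the first 4 were named after their values were seen. SATB1, an organiser of chromatin in lymphocytes, differed by 0.38 (0.13 to 0.63), and SAMD9L, a relative of the antiviral factor SAMD9, by 0.35 (0.10 to 0.60). H2BC12 encodes a core histone and had the largest rise. It was 6.60, 7.05 and 6.71 in controls, 9.005, 8.38 and 9.68 at 1 nM, and 9.14, 8.55 and 9.40 at 10 nM. The doses overlapped fully, with a difference of 0.01 (-0.26 to 0.28) beside a change of 2.24. HLA-DPB1, a beta chain of the antigen-presenting MHC class II molecules, was 10.13, 10.11 and 9.89 in controls, 11.04, 11.16 and 11.40 at 1 nM, and 11.16, 11.19 and 11.25 at 10 nM. Its difference was 0.00 in size (-0.25 to 0.25) beside a change of 1.16. The 13 MHC class II genes had a median of 0.12 between the doses, beside 0.03 over all genes. Of them 9 were higher at 10 nM and 30.8% lower, beside 40.6% of all genes that were lower. At an unadjusted p under 0.05 there were 0, against 3.24% of all genes higher and 4.35% lower. An interval within 0.5 was found for 12 (92.3%, against 86.7% of all genes). The list's median against control was 0.70 at 1 nM and 0.80 at 10 nM.

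Among the other large rises, DENND2C and H4C8 were higher at 10 nM in 3 of 3 pairs with intervals that reached 0. DENND2C, with a DENN domain typical of Rab regulators, differed by 0.20 (-0.05 to 0.44) beside a change of 1.91. H4C8, a histone H4 gene, differed by 0.26 (-0.01 to 0.53) beside 1.70. SAMD9, an interferon-induced antiviral factor, differed by 0.03 (-0.38 to 0.43) beside 1.51, and COMMD6, a COMM domain protein, by -0.12 (-0.37 to 0.13) beside 1.47. RASGRP3, an exchange factor that activates Ras in B cells, was 10.63, 10.90 and 10.08 at 10 nM and 10.08, 10.68 and 9.87 at 1 nM. It was higher at 10 nM in 3 of 3 pairs although the groups overlapped, by 0.33 (0.07 to 0.59, limma adjusted p = 0.586).

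Several genes outside these pathways also fell under rapamycin. CD38, the plasma cell surface enzyme targeted by myeloma antibodies, was 8.98, 9.05 and 8.45 in controls, 7.64, 7.16 and 7.20 at 1 nM, and 7.71, 7.42 and 7.29 at 10 nM. Its dose difference was 0.14 (-0.11 to 0.38), and the largest further fall inside the interval is 7.50% of the change of -1.43. NEU1, the lysosomal sialidase, was higher at 10 nM without overlap, by 0.22 (-0.02 to 0.46), beside a change of -1.31. CDKN1A, the CDK inhibitor p21, differed by -0.06 (-0.33 to 0.20) beside -1.78. TSC22D3, a glucocorticoid-induced leucine zipper protein, differed by -0.18 (-0.47 to 0.12) beside -1.86, and GPSM2, which orients the mitotic spindle, by -0.21 (-0.50 to 0.08) beside -1.85.

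**Figure D3:**
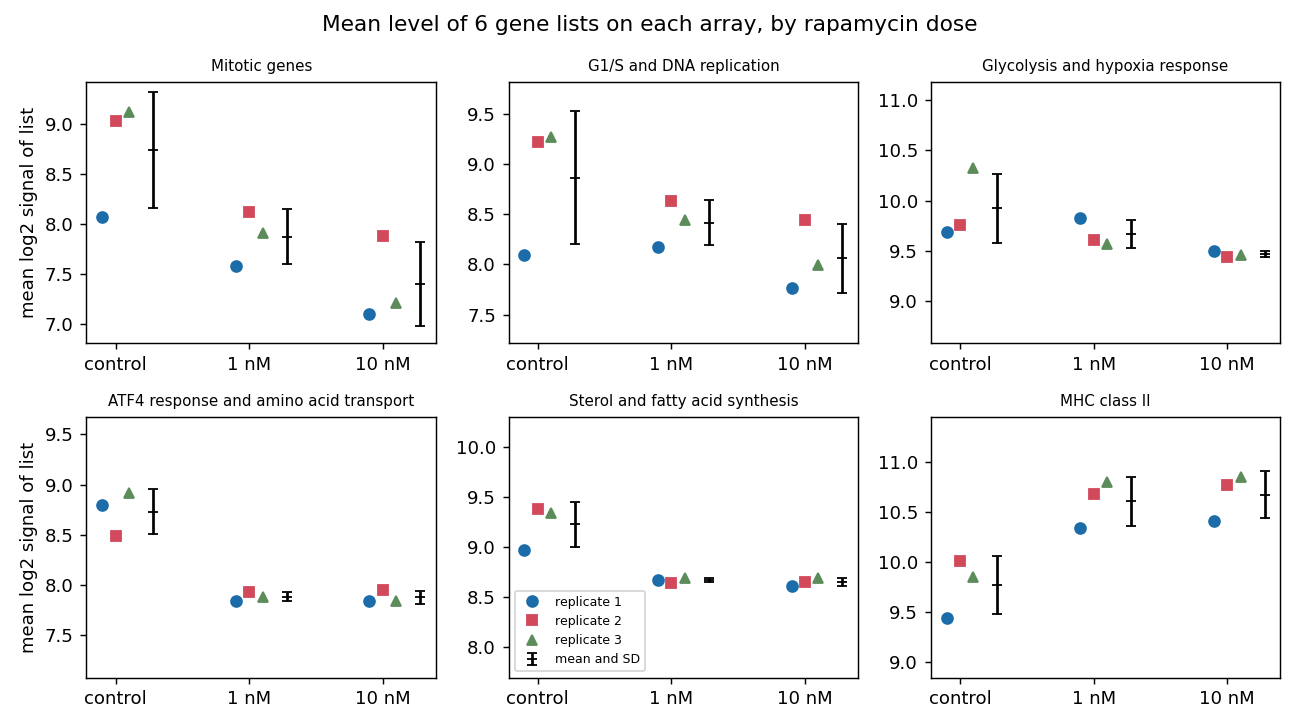
The mean log2 signal of 6 gene lists on each array is plotted against rapamycin dose, with 1 marker a replicate number and the mean with its SD (n = 3 arrays) beside each group. In each replicate number the mitotic and G1/S lists are lower at 10 nM than at 1 nM, and the MHC class II list is higher by a smaller step (10.41, 10.76 and 10.85 at 10 nM and 10.34, 10.68 and 10.80 at 1 nM). The ATF4 and sterol lists run both ways.

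Mitotic genes were lower at 10 nM as a group. All 48 listed members were measured and 48 of 48 were lower at 10 nM, with log2 differences from -0.86 to -0.07 and a median of -0.47, beside 0.03 over all genes. The median was -0.53, -0.26 and -0.51 in pairs 1, 2 and 3. In all 3 pairs 41 members were lower, against 11.8% of all genes, and at an unadjusted p under 0.05 there were 43 lower members (4.35% of all genes) and 0 higher (3.24%). None passed after adjustment over all genes, and without the block 4 members (8.33%) had an unadjusted p under 0.05, against 0.627% of all genes. Against control the list's median was -0.93 at 1 nM and -1.35 at 10 nM. The mean level of the list was 8.07, 9.03 and 9.12 in controls, 7.58, 8.12 and 7.91 at 1 nM, and 7.10, 7.88 and 7.21 at 10 nM. Total RNA of a culture cannot tell fewer dividing cells from less of these mRNAs in each cell.

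AURKA, the kinase that matures the spindle poles, was 7.26, 7.91 and 7.91 at 10 nM and 7.92, 8.24 and 8.43 at 1 nM. Its groups did not overlap, with the highest 10 nM array just below the lowest 1 nM array, and the difference was -0.50 (-0.76 to -0.25, limma adjusted p = 0.329). Its 3 probe sets all had this sign, from -0.50 to -0.02. The interval reaches 48.5% of its change from control, which was -1.56. CCNB1, the cyclin that drives entry into mitosis, was 7.52, 8.23 and 8.18 at 10 nM and 8.24, 8.69 and 8.82 at 1 nM. Here too the groups were apart, narrowly, with a difference of -0.61 (-0.85 to -0.36, limma adjusted p = 0.223).

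CDC20, which activates the anaphase-promoting complex, was 6.94, 8.03 and 7.94 at 10 nM and 7.73, 8.30 and 8.27 at 1 nM, a difference of -0.46 (-0.74 to -0.18) beside a change from control of -1.80. PLK1, a kinase required throughout mitosis, was 6.80, 7.70 and 7.57 at 10 nM and 7.42, 7.96 and 7.75 at 1 nM, a difference of -0.35 (-0.62 to -0.09) beside -1.82. The groups of both genes overlapped, since replicate 1 ran low at either dose, but each pair had the lower value at 10 nM. Without pair 1 the differences were -0.30 for CDC20 and -0.22 for PLK1. MKI67, the proliferation marker Ki-67, differed by -0.36 (-0.65 to -0.06) and by -0.18 without pair 1, since pair 2 held 7.29 at 10 nM and 7.34 at 1 nM.

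Further members had differences of the same order. BUB1, a kinase of the spindle checkpoint, was at -0.72 (-1.02 to -0.41), although 1 of its 5 probe sets had the other sign. KIF20A, a kinesin of cell division, was at -0.56 (-0.80 to -0.31). AURKB, the kinase of the chromosomal passenger complex, was at -0.37 (-0.62 to -0.12). MYBL2, the transcription factor B-MYB that switches on late cell cycle genes, was 7.82, 8.39 and 8.27 at 10 nM and 8.33, 8.73 and 8.65 at 1 nM, at -0.41 (-0.65 to -0.16) with every pair lower.

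**Figure D4:**
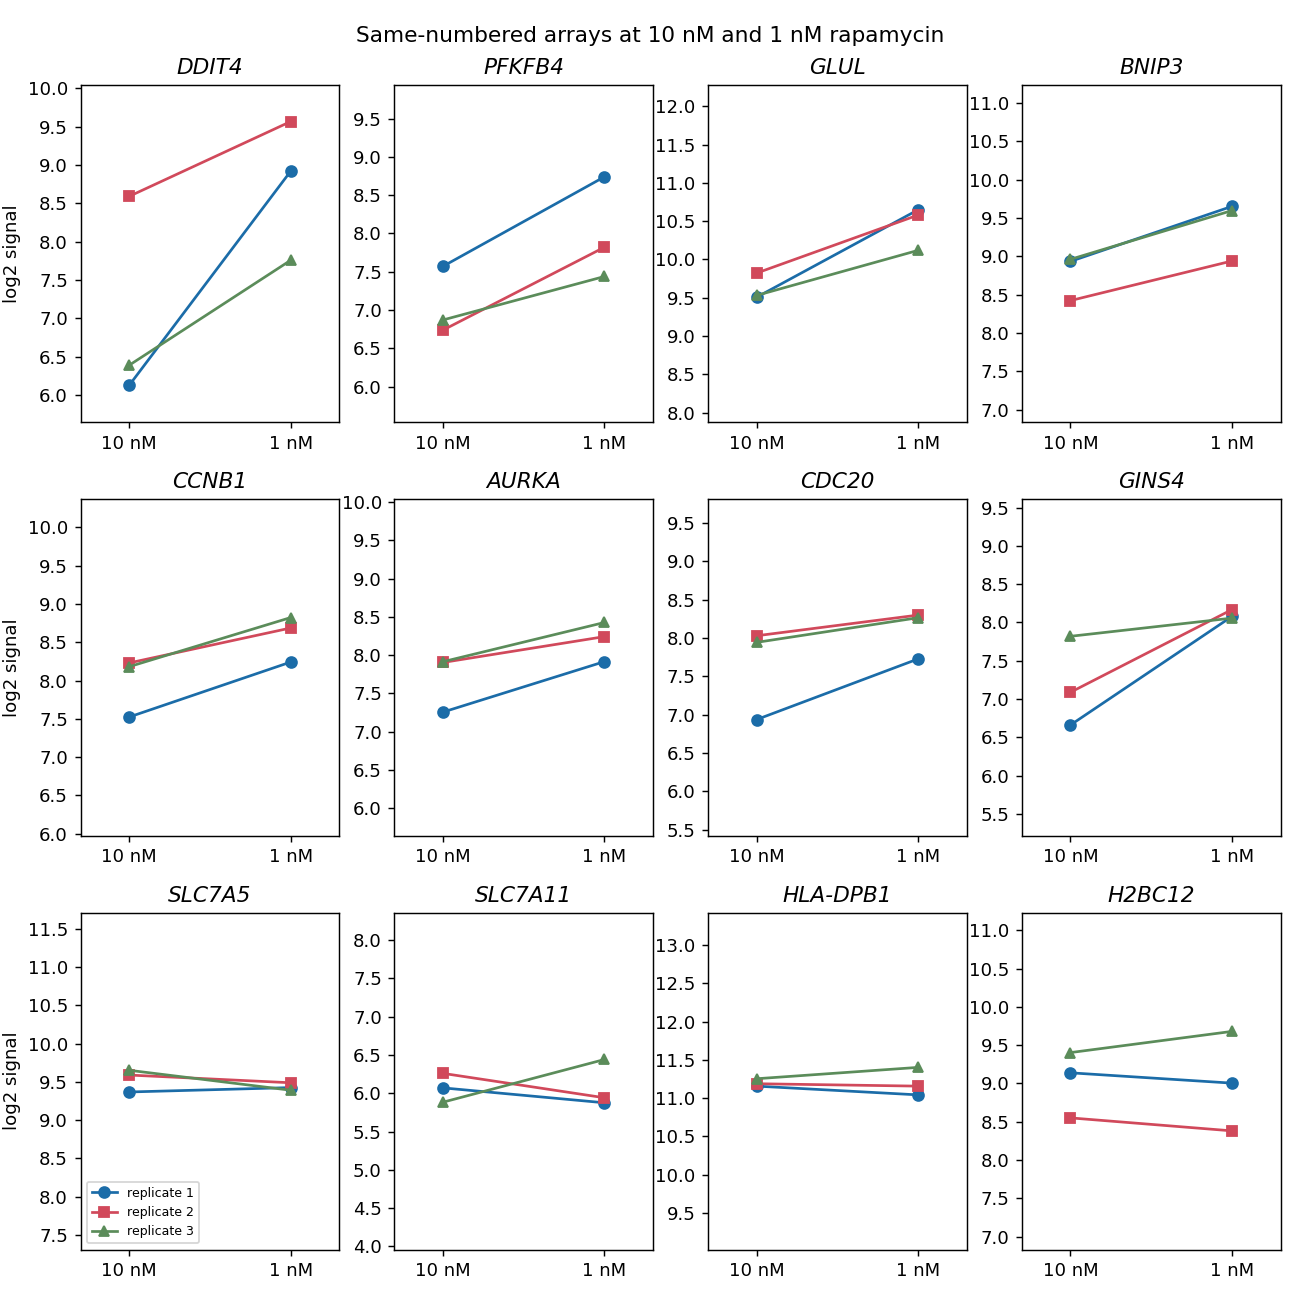
Log2 signals of 12 genes on same-numbered arrays at 10 nM (left) and 1 nM (right), joined by lines, with the same span on every vertical axis. DDIT4, PFKFB4, GLUL, BNIP3, CCNB1, AURKA, CDC20 and GINS4 are lower at 10 nM in all 3 pairs, and the lines of SLC7A5, SLC7A11, HLA-DPB1 and H2BC12 are nearly level or run both ways.

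The promoters of mitotic genes share a short element, the cell cycle homology region, that holds their transcription back outside G2 and mitosis, and 3 promoters are shown because these genes were lower together. RefSeq windows of 250 bases before and 50 after the start (GRCh38.p14) were found for 41 of the 48 genes. The letters TTTGAA or TTCGAA, on either strand, occurred in 30 of 41 (73.2%), against 19.5% of all genes and 16.4% of all windows. The box CCAAT, on either strand, occurred in 33 of 41 (80.5%), against 39.7% of all genes and 34.6% of all windows. That box was as common in lists that were not lower at 10 nM, in 84.0% of sterol, 91.3% of unfolded protein response and 90.0% of MHC class II genes. Capitals mark TTTGAA or its reverse complement, and a match is a description of the letters only. The PLK1 match starts at position -29 (chr16:23678639-23678938, plus strand), those of CDC20 at -178 and -65 (chr1:43358731-43359030, plus strand) and those of MKI67 at -47 and -29 (chr10:128126374-128126673, minus strand).
PLK1: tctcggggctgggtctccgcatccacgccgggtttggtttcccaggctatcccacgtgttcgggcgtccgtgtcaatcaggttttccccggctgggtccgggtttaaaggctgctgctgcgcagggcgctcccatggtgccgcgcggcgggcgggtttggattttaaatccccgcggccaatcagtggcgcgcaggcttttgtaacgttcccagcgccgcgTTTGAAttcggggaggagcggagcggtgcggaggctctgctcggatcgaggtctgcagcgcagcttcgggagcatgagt
CDC20: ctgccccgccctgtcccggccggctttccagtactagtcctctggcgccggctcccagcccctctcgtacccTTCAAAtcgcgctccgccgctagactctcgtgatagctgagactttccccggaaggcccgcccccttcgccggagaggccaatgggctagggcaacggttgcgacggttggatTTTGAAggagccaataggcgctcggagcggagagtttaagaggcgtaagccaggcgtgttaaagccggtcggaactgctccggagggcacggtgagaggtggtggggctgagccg
MKI67: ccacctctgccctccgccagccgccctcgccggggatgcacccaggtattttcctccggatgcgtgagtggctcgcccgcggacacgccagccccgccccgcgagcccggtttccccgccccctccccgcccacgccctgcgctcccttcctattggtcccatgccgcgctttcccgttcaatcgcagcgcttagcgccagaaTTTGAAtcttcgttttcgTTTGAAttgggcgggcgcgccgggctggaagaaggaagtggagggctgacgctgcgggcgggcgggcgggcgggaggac

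Genes of the G1/S transition and DNA replication were lower at 10 nM to a smaller degree. Of 49 listed genes 48 were measured, and 47 were lower at 10 nM, with a median of -0.34 (-0.39, -0.16 and -0.32 in the pairs). At an unadjusted p under 0.05, 28 were lower (58.3%, against 4.35% of all genes) and 0 higher (3.24%), and 38 (79.2%) were lower in all 3 pairs, against 11.8%. Without the block 7 members (14.6%) were lower at that threshold, against 0.627% of all genes. Against control the median was -0.50 at 1 nM and -0.77 at 10 nM. The mean level of the list was 8.10, 9.22 and 9.27 in controls, 8.18, 8.63 and 8.45 at 1 nM, and 7.76, 8.44 and 7.99 at 10 nM.

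GINS4, a subunit of the replicative helicase complex, was 6.66, 7.09 and 7.82 at 10 nM and 8.08, 8.17 and 8.06 at 1 nM. The groups did not overlap, the 1 nM arrays lay within a narrow band, and the difference was -0.91 (-1.31 to -0.52, limma adjusted p = 0.261). Its 4 probe sets all had this sign, from -0.91 to -0.14. The interval reaches 102% of its change from control of -1.28. UHRF1, which maintains DNA methylation behind the fork, was 7.17, 8.40 and 7.15 at 10 nM and 7.73, 8.72 and 8.17 at 1 nM, with a difference of -0.63 (-0.93 to -0.33). E2F8, a repressor of the E2F family made in S phase, was 5.36, 6.31 and 4.87 at 10 nM and 5.70, 6.99 and 6.44 at 1 nM, with a difference of -0.86 (-1.27 to -0.46). For E2F8 the largest step was in pair 3, and the value without that pair was -0.51. TYMS, thymidylate synthase, was 10.96, 11.31 and 10.93 at 10 nM and 11.40, 11.66 and 11.63 at 1 nM, without overlap, at -0.50 (-0.76 to -0.24), and its 3 probe sets ran from -0.50 to -0.07.

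The promoter of TYMS is shown for the element of this group, bound by E2F factors. The letters searched were TTCGCGC as well as TTGGCGC. The search also took TTCCCGC as well as TTGCCGC, all on either strand. One or more of the 4 occurred in 36 of 43 list members with a window (83.7%), against 15.3% of all genes and 13.0% of all windows, and in 11 of 41 mitotic genes (26.8%). The mitotic element was found in 4 of 43 (9.3%). The TYMS match, in capitals, starts at position -39 (chr18:657403-657702, plus strand).
TYMS: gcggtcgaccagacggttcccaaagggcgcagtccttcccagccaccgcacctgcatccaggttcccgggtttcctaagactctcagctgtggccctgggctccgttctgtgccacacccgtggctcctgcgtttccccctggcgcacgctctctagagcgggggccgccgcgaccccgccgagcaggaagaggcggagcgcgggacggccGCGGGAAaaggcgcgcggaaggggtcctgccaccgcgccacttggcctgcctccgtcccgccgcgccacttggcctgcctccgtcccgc

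The largest single difference was in DDIT4, also known as REDD1, a brake on mTOR complex 1 that is induced by hypoxia and stress. It was 6.12, 8.59 and 6.39 at 10 nM and 8.92, 9.57 and 7.76 at 1 nM, against 11.01, 9.12 and 11.06 in controls. The doses overlapped, but each pair was lower at 10 nM, with differences of -2.80, -0.98 and -1.37. The fitted difference was -1.72 (-2.26 to -1.17), or 3.28-fold, with an adjusted p of 0.122 in limma and of 0.600 when limma's prior was fitted with a trend and made robust. With 1 probe set, no second measurement was at hand for this gene.

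DDIT4 is counted with the mTOR brakes, and genes of glycolysis and hypoxia response were also lower at 10 nM. PFKFB3 and PFKFB4 make and break down fructose 2,6-bisphosphate, the main activator of glycolysis. PFKFB4 was 7.57, 6.74 and 6.87 at 10 nM and 8.74, 7.82 and 7.44 at 1 nM, a difference of -0.94 (-1.23 to -0.65, limma adjusted p = 0.122), while its second probe set gave -0.11. PFKFB3 was 6.43, 6.31 and 5.89 at 10 nM and 7.27, 6.99 and 6.62 at 1 nM, a difference of -0.75 (-0.99 to -0.51, limma adjusted p = 0.122). The PFKFB3 groups did not overlap, and those of PFKFB4 did. Controls of PFKFB3 were 5.24, 6.54 and 7.20, and the gene differed from them by 0.63 at 1 nM and -0.12 at 10 nM. BNIP3, a mitophagy receptor induced in hypoxia, was 8.93, 8.42 and 8.96 at 10 nM and 9.65, 8.94 and 9.60 at 1 nM, at -0.62 (-0.87 to -0.38), with -0.72, -0.52 and -0.64 in the pairs. Its controls spread over 8.25, 9.13 and 10.78, and it differed from them by 0.01 at 1 nM and -0.61 at 10 nM. HK2, the hexokinase of proliferating cells, differed by -0.25 (-0.55 to 0.05), and 1 of its 3 probe sets had this sign, with a range of -0.25 to 0.04.

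Over the list, 27 of 30 genes were measured and 23 (85.2%) were lower at 10 nM, against 40.6% of all genes, with a median of -0.13. The median was -0.33, -0.16 and -0.01 in pairs 1, 2 and 3, and -0.06 without pair 1. At an unadjusted p under 0.05, 8 were lower (29.6%, against 4.35% of all genes) and 0 higher, and 3 were lower without the block (11.1%, against 0.627%). An interval within 0.5 of no difference was found for 19 members (70.4%, against 86.7% of all genes). The mean level was 9.69, 9.76 and 10.32 in controls, 9.83, 9.61 and 9.56 at 1 nM, and 9.49, 9.44 and 9.46 at 10 nM.

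Promoters of DDIT4 and BNIP3 are shown with the core of the hypoxia response element, ACGTG on either strand, in capitals. It occurred in 15 of 25 list members with a window (60.0%), against 24.9% of all genes and 21.4% of all windows. It was as common in ribosome biogenesis genes (62.5%), whose median difference was 0.02, and occurred in 36.4% of the mTOR brakes, the list that holds DDIT4. The DDIT4 match starts at -125 (chr10:72273674-72273973, plus strand). In BNIP3 both strands match within the 6 letters that start at -134 (chr10:131981874-131982173, minus strand).
DDIT4: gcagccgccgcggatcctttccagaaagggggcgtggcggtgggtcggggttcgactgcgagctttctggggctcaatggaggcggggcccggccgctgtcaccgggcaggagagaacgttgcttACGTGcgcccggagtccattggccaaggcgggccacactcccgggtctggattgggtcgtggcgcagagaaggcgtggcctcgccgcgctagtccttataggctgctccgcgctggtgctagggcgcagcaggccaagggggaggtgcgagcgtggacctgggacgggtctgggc
BNIP3: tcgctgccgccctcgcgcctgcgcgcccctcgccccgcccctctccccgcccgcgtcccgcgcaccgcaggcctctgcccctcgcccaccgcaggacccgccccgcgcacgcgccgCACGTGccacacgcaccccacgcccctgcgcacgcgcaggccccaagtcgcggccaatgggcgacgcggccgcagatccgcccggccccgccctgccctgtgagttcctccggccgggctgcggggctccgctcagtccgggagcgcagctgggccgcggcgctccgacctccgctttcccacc

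GLUL, MTFR2 and FNBP1L also met the rule for the clearest differences. GLUL, glutamine synthetase, was 9.51, 9.82 and 9.53 at 10 nM and 10.65, 10.58 and 10.12 at 1 nM. Its groups did not overlap, and the difference was -0.83 (-1.11 to -0.55), with a limma adjusted p of 0.128 that became 0.0373 with a trend and a robust prior, as it did for PFKFB4. Of its 4 probe sets 3 had this sign, from -0.83 to 0.04. MTFR2, a regulator of mitochondrial fission that is high in dividing cells, was 5.57, 6.64 and 5.81 at 10 nM and 6.31, 7.27 and 6.87 at 1 nM, a difference of -0.81 (-1.07 to -0.54), with 3 probe sets from -0.81 to -0.06. FNBP1L, an F-BAR protein of membrane and actin remodelling, differed by -0.67 (-0.92 to -0.42) at a dim level of 3.92 to 5.17. GLUL, MTFR2 and FNBP1L showed no response past the threshold in the mean of both doses, at -0.04, -0.43 and 0.60 against control. DDIT4, at -2.50, also fell short of it (limma adjusted p = 0.0722), as did BNIP3, PFKFB3, BUB1, CCNB1 and E2F8.

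Components of the mTOR pathway itself resembled all genes. Of 25 complex members and effectors, 22 (88.0%) had an interval within 0.5 of no difference, against 86.7% of all genes, 0 had an unadjusted p under 0.05, and the median was 0.03. MTOR differed by -0.03 (-0.29 to 0.23), RPTOR of complex 1 by -0.09 (-0.33 to 0.15), and RICTOR of complex 2 by 0.01 (-0.29 to 0.32). FKBP1A, which encodes FKBP12, differed by 0.07 (-0.20 to 0.35), but only 1 of its 4 probe sets had this sign, and they ran from -0.44 to 0.07. The 22 measured mTOR brakes and insulin feedback genes had a median of 0.00. At an unadjusted p under 0.05, DDIT4 and SESN3 were lower (9.09%, against 4.35% of all genes) and PIK3IP1 higher (4.55%, against 3.24%). SESN3, a stress sensor that restrains mTOR complex 1, was at -0.51 (-0.90 to -0.11) with 5 of 7 probe sets of this sign, and PIK3IP1, an inhibitor of PI3 kinase, at 0.30 (0.04 to 0.57).

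Ribosomal protein genes, whose translation mTOR complex 1 controls, were flat at the mRNA level: 36 of 37 (97.3%, against 86.7% of all genes) had an interval within 0.5 of no difference and the median was -0.02. Ribosome biogenesis genes had a median of 0.02 (29 measured, 1 lower at an unadjusted p under 0.05), and nucleotide and folate synthesis genes one of -0.01 (25 measured, 3 lower at that threshold, TYMS among them). CDK inhibitors and G1 cyclins had a median of -0.06, with 11 of 17 lower, 4 of them at an unadjusted p under 0.05 (23.5%, against 4.35% of all genes). One was CDKN1B, the CDK inhibitor p27, at 8.76, 8.82 and 8.60 at 10 nM and 8.90, 9.15 and 9.32 at 1 nM, a difference of -0.39 (-0.68 to -0.11) that was -0.23 without pair 3. RB1, the retinoblastoma protein gene, was 7.11, 7.13 and 5.67 at 10 nM and 7.28, 7.94 and 7.78 at 1 nM, a difference of -1.03 (-1.59 to -0.47) in which pair 3 gave the largest step and the second probe set gave 0.06.

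Secretory, lysosomal and plasma cell genes had list medians of 0.12, 0.06 and 0.09, beside 0.03 over all genes. Of 23 measured genes of the unfolded protein response, which matches the endoplasmic reticulum to antibody secretion, 12 were higher in all 3 pairs, 52.2% beside 17.4% of all genes, and 2 had an unadjusted p under 0.05 (8.70%, against 3.24%). ATF6, a sensor of that response, was 10.69, 10.32 and 10.43 at 10 nM and 10.37, 10.00 and 10.14 at 1 nM, a difference of 0.31 (0.07 to 0.55) that 3 of its 4 probe sets shared in sign. DERL3, a channel component for disposal of misfolded proteins, differed by 0.35 (0.10 to 0.59) without overlap. SGSH and HEXA, lysosomal hydrolases, differed by 0.34 (0.06 to 0.61) and 0.30 (0.06 to 0.55). They were the only 2 of 38 lysosome and autophagy genes higher at an unadjusted p under 0.05 (5.26%, against 3.24% of all genes). JCHAIN, the joining chain of secreted antibodies, went the other way, at 12.98, 12.83 and 11.36 at 10 nM and 12.83, 13.13 and 12.49 at 1 nM, a difference of -0.43 (-0.84 to -0.01) with 2 of 3 pairs lower. PIM2, a survival kinase of myeloma cells, differed by 0.37 (0.10 to 0.63). MYC, the transcription factor, was 12.50, 12.13 and 12.80 at 10 nM and 12.41, 11.98 and 12.44 at 1 nM, higher in 3 of 3 pairs by 0.20 (-0.05 to 0.45). BCL2L11, which encodes the death inducer BIM, differed by 0.12 (-0.14 to 0.38), and PMAIP1, which encodes NOXA, by -0.56 (-0.83 to -0.28). Markers of other cell types were higher to a like degree, with list medians of 0.02 to 0.12, and their part in these small differences was not tested.

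**Figure D5:**
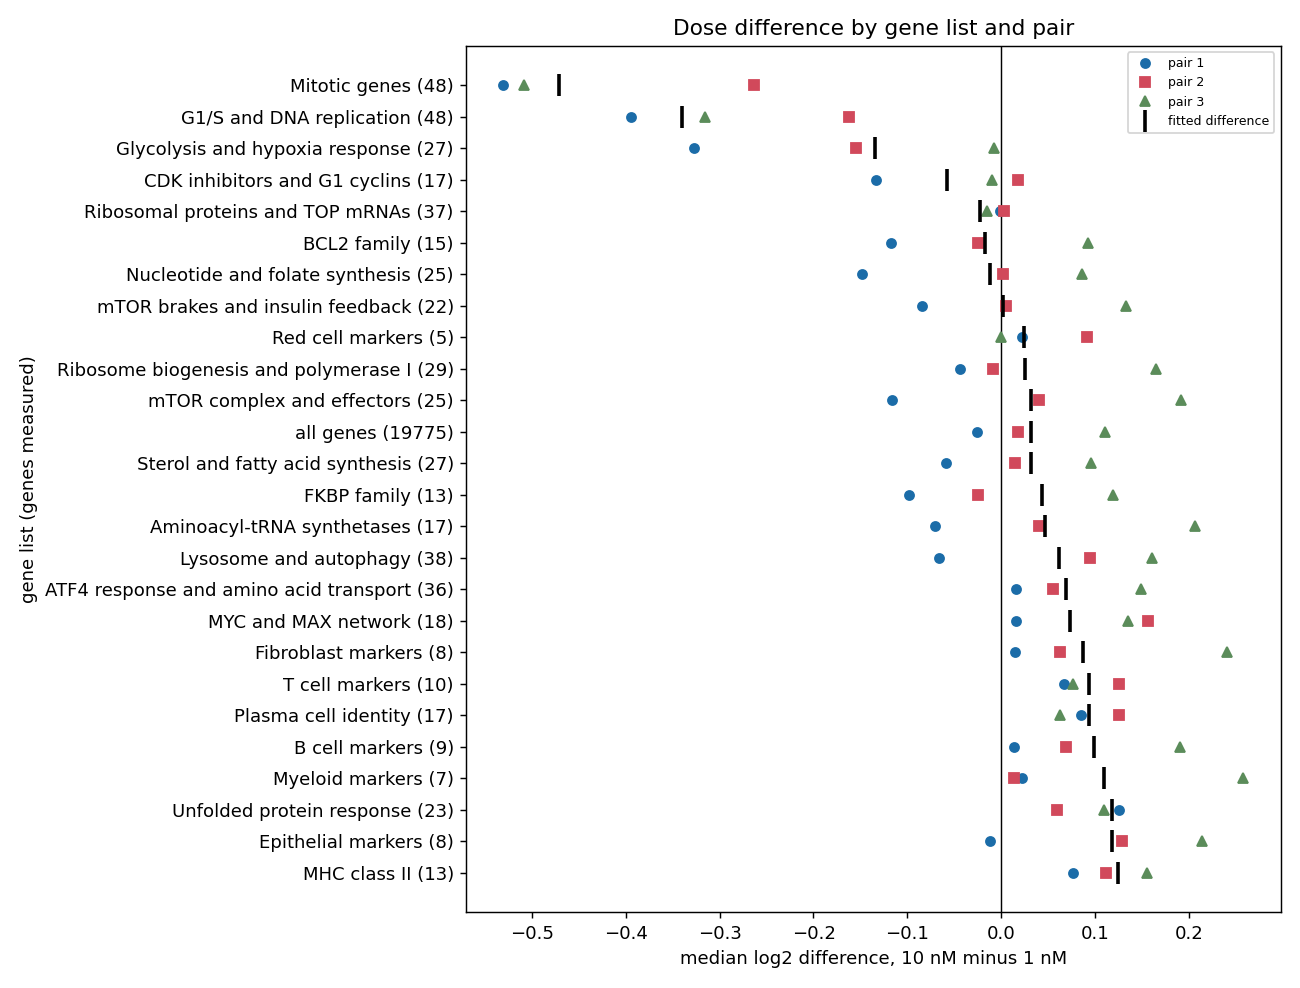
For each of 25 gene lists and all genes, markers give the median log2 difference of 10 nM minus 1 nM in pairs 1, 2 and 3, and the black bar the median of the fitted differences, with the number of genes measured in brackets. The mitotic and G1/S lists lie left of the others in every pair, and the median over all genes is -0.03 in pair 1 and 0.11 in pair 3.

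The same step of dose was measured on other arrays, with MS275 present, as 2 arrays at 10 nM and 3 at 1 nM. No gene passed the adjusted threshold there (0.0%), and 152 genes had an unadjusted p under 0.05 (0.769%). Mitotic genes had a median of -0.34, with 36 of 48 lower, beside -0.10 and 64.8% over all genes, and 3 had an unadjusted p under 0.05 (0.627% of all genes were lower). G1/S genes had a median of -0.24, with 31 of 48 lower, a share no larger than the 64.8% of all genes. Of these, 4 had an unadjusted p under 0.05, against 0.627% of all genes. Without 10 nM replicate 1 the mitotic median was -0.20, without 1 nM replicate 3 it was -0.19, and without the narrow 1 nM replicate 1 it was -0.50. The G1/S median was -0.15 without 1 nM replicate 2.

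MKI67 was 6.28 and 5.99 at 10 nM with MS275 and 7.08, 6.63 and 6.74 at 1 nM with MS275, without overlap, a difference of -0.68 (-1.16 to -0.20). AURKB differed by -0.73 (-1.31 to -0.16) and GINS4 by -0.96 (-1.68 to -0.23). These 3 had the clearest differences with MS275 among the cell cycle genes described above. The same step was -0.23 for AURKA, -0.16 for CCNB1, 0.15 for BUB1 and 0.08 for E2F8, and outside the cell cycle 0.17 for PFKFB3, 0.22 for BNIP3 and 0.42 for GLUL, each with an interval that spans 0. DDIT4, in contrast, was 6.49 and 6.28 at 10 nM with MS275 and 6.37, 6.82 and 6.13 at 1 nM with MS275, a difference of -0.05 (-1.70 to 1.60), at the level of the lowest arrays without MS275. SLC7A5 differed by -0.07 (-0.61 to 0.48). Intervals here are wider, since the spread comes from all 17 arrays without pairing.

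Whether the step differed with MS275 was tested as an interaction. No gene passed (0.0% adjusted, 0.622% at an unadjusted p under 0.05), and the interaction of DDIT4 was 1.67 with a limma adjusted p of 0.998. The median interaction was 0.02 for mitotic genes and -0.14 over all genes. Across all 19775 genes the differences with and without MS275 correlated at r = -0.494, a description over genes that are not independent. That value was -0.09 without the narrow replicate 1 of 1 nM with MS275 and -0.14 without replicate 2 of 10 nM with MS275, so it rests on single arrays.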

How the data were processed

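Total RNA extracted with TRIzol was amplified to biotin-labelled antisense RNA and hybridised to oligonucleotide arrays, per the labels' protocols. The log2 signals per probe set are the values the authors deposited, made with affy and RMA per the submitters' processing notes. No version or setting is given in the sources used here. The table holds 54613 probe sets, of which 41091 carry 1 gene symbol, 1801 several and 11721 none, and 41037 matched RefSeq (GRCh38.p14) by Entrez ID. Each of 19775 genes was read from 1 such probe set, that with the highest mean over 17 arrays.

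The doses were compared with limma 3.58.1 in R 4.3.3 on the 6 arrays, with the replicate number as a block and Benjamini-Hochberg adjustment over all genes. The threshold is an adjusted p of 0.05. Intervals come from this moderated fit (2 residual degrees of freedom, prior 9.97). The labels give only numbers. Arrays were paired by these numbers, and the pairing was then checked on the data. Deviations of same-numbered arrays from their dose means correlated at 0.313, 0.854 and 0.715, all over 0.1. Those of differently numbered arrays correlated at -0.73 to 0.035. Deviations within a dose cancel out, so high values for same-numbered arrays force low ones elsewhere. The latter are therefore no separate support for the pairing. Comparisons with control and with MS275 used all 17 arrays, 6 group means and no block. No 2 arrays held the same values. Fits were tested on simulated data.

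Named genes include the 6 clearest dose differences in each direction (past the threshold, otherwise at least 0.5 and the same sign in 3 pairs, by p). They also include the 10 largest falls and 6 largest rises against control among the responsive genes. The rest are 3 members a list by p, and 34 genes of interest. No gene met the rule for a rise at 10 nM. The 25 lists (542 of 598 entries measured) and the members were chosen with earlier results of these data known. Of 120 named genes 78 have several probe sets, and in 34 of these 1 or more has the other sign. Alternatives were other pairings, filters, scalings and left-out arrays.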

Additional observations from a re-analysis of the deposited data

How the results depend on the processing

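The number of genes past the adjusted threshold between the doses was 0 in limma with the replicate block, without it and with all 17 arrays, after quantile normalization, with the mean of a gene's probe sets and with a mean log2 signal of at least 6. With no replicate block 246 genes had an unadjusted p under 0.05, against 1501 with it. A trend and robust prior gave 2 (GLUL and PFKFB4), and leaving out 1 pair gave 87 to 288, in fits with 1 residual degree of freedom. The number responding to rapamycin was 179, and 382 with the replicate block, 28 with control and both doses only, and 49 to 258 without 1 array. The number was 0 with MS275 and for the interaction under each alternative run. The mitotic, G1/S and glycolysis medians and the further change of responsive genes kept their sign under each alternative run. Without 1 pair they ran from -0.57 to -0.38, -0.43 to -0.24, -0.21 to -0.06 and 0.02 to 0.14. With the level filter the T cell and fibroblast marker medians, 0.09 and 0.09, turned to -0.0325 and -0.12, and fewer genes entered them. The number of arrays limits precision, and signal over background is not known.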
